A study of Mus musculus with 30 samples.

Results

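The 40 genes described here carry glucose into the heart cell and on to pyruvate, lactate and glycogen: glucose and lactate carriers, the glycolytic enzymes, the bifunctional PFKFB enzymes, the kinases and subunits of pyruvate dehydrogenase, the mitochondrial pyruvate carrier, glycogen enzymes and the first enzymes of side branches. Rows of a count table of mouse heart RNA, with 55487 gene identifiers, were matched to the list by symbol. The list itself was drawn up with earlier results of these data known. All 40 were found and 39 were abundant enough to be tested. Aldoc, an aldolase of brain, stayed at or below 1.72 CPM (counts scaled to a common library size) in every library and was not tested, and a second, short Aldoa entry stayed at or below 0.757 CPM. RNA of 30 mouse hearts was sequenced at 8 weeks from surgery, which was either a sham operation or transverse aortic constriction (TAC), in which a clip around the aorta makes the left ventricle pump against a higher pressure. The floxed cohort held 4 groups of 4 libraries: FF_sham and FF_TAC from mice with floxed CPT1a, the liver form of carnitine palmitoyltransferase, and KO_sham and KO_TAC from mice with a cardiac specific knockout of CPT1a. All 4 of these groups thus come from the floxed line, and the labels used here do not name the Cre driver. The titles of the KO_TAC samples also carry the word sham, while their genotype and treatment labels and their column names say knockout and TAC, which was followed here. The second cohort held C57Bl/6 mice given PBS (PBS_sham and PBS_TAC, 3 libraries each) or AAV9.Cpt1a, a viral vector in which the promoter of cardiac troponin T drives Cpt1a (4 libraries each in AAV_sham and AAV_TAC). Clips were of 2 sizes, and the labels do not say which mouse had which. No label says more of a replicate than its number, so the p-values measure the spread between these hearts.

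In the working adult heart, fatty acids supply most of the fuel and glucose the rest. Glucose enters through GLUT4 (Slc2a4), which insulin and contraction bring to the surface, and through GLUT1 (Slc2a1), which sits there without insulin and is the main form in the fetal heart. Hexokinase traps it, phosphofructokinase commits it to glycolysis under the control of fructose 2,6-bisphosphate, which the PFKFB enzymes make and destroy, and pyruvate dehydrogenase admits pyruvate to the mitochondrial oxidation pathway unless a pyruvate dehydrogenase kinase (PDK) has switched it off. CPT1 admits long-chain fatty acids to the same mitochondria.

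Total counts ran from 14839758 to 22070373 per library. Cpt1a itself, the targeted gene, ran from 37.8 to 52.6 CPM in FF_sham, from 16.2 to 48.8 in FF_TAC, from 20.3 to 46.2 in KO_sham and from 11.1 to 19.6 in KO_TAC, so KO_sham replicate 2 lay within the floxed sham range. In the vector cohort it ran from 37.4 to 68.0 CPM in PBS_sham and from 56.3 to 88.3 in AAV_sham, and these ranges overlapped. Of the floxed cohort, 7 libraries (FF_TAC replicates 2 and 3, KO_sham replicate 2 and all 4 of KO_TAC) held under 100 CPM of haemoglobin transcripts, with 8 early response genes summing to 1491 to 4565 CPM against 125 to 179 CPM in the other 9. Cardiomyocyte markers were high in all hearts, and PBS_sham replicate 3 stood apart with 26260 CPM of them against 55440 to 71960 CPM in the rest of its cohort, and 1795 against 95.4 to 248 CPM of smooth muscle markers. KO_TAC replicate 1 held 8469 CPM of atrial markers, the most of all libraries. The share of counts from mitochondrial genes ran from 12.1 to 18.7% in KO_TAC and from 20.9 to 26.0% in the other 12 floxed hearts, and its part in the results was not tested. In tissue RNA, fewer cells of a type and less RNA per cell cannot be told apart.

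On the scale of CPM per kilobase of exon, the FF_sham hearts held most RNA for Ldhb, the heart form of lactate dehydrogenase (1079, from 894 to 1256), Aldoa (993, from 851 to 1091), Eno3, the muscle enolase (815, from 743 to 906) and Pgam2, the muscle phosphoglycerate mutase (609, from 498 to 738). Ldhb and Aldoa, and likewise Aldoa and Eno3, overlapped between hearts, so their order is not fixed. The muscle forms Pfkm and Slc2a4 stood far above their partners on this scale. Pfkm was at 377 against 21.2 for the liver form Pfkl and 3.84 for the platelet form Pfkp, and Slc2a4 at 122 against 5.40 for Slc2a1. The gap was smaller for Hk2, at 55.1 against 24.4 for Hk1, and for Pygm, at 417 against 201 for Pygb. Slc16a3, an exporter of lactate, was the lowest tested member at 0.421. Gapdh is a special case: 127 annotated sequences elsewhere in the genome match it closely, and these held 35.9% of the summed counts of Gapdh and its copies, so its level of 70.3 is uncertain. Copies of Mpc1 likewise held 37.9% of the counts summed with them. No other member had over 1.3% there.

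Knockout hearts under TAC differed from both of their reference groups in part of this set, with the carrier gene Slc2a1 and the enzyme genes Hk1, Pfkp and Eno1 higher and the muscle and heart forms Slc2a4, Pfkm, Pfkfb2 and Pygm lower. Not all muscle and heart forms fell. Eno3, Ldhb and Pgam2 were called in neither comparison, with Pgam2 leaning upward against KO_sham, and Hk2 was called lower against FF_TAC alone. Against KO_sham, 10 of 39 tested members were higher (25.6%, beside 14.3% of all 15596 genes) and 6 were lower (15.4%, beside 11.5% of all genes). Against FF_TAC, 7 were higher (17.9%, beside 7.53% of all genes) and 8 were lower (20.5%, beside 6.80% of all genes). The median log2 fold change over the 39 was 0.31 against KO_sham, where that of all genes was 0.02, and 0.07 against FF_TAC, where that of all genes was 0.04. Single hearts moved these medians: the first was 0.18 without KO_sham replicate 2, and the second was 0.18 without KO_TAC replicate 1, -0.06 without replicate 2, 0.0045 without replicate 3, and 0.03, 0.04 and 0.04 without FF_TAC replicates 1, 3 and 4. Calls are at a Benjamini-Hochberg adjusted p under 0.05 over all genes in edgeR's quasi-likelihood test. The 2 comparisons share the KO_TAC libraries and are not independent of each other. Without KO_TAC replicate 1 the counts were 23 and 21, beside 40.8% and 24.3% of all genes in either direction, without KO_sham replicate 2 the first count was 13 (19.95% of all genes, with Gapdh, Pgk1 and Pygm lost), and without KO_TAC replicate 3 it was 9 (12.3% of all genes).

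**Figure D1:**
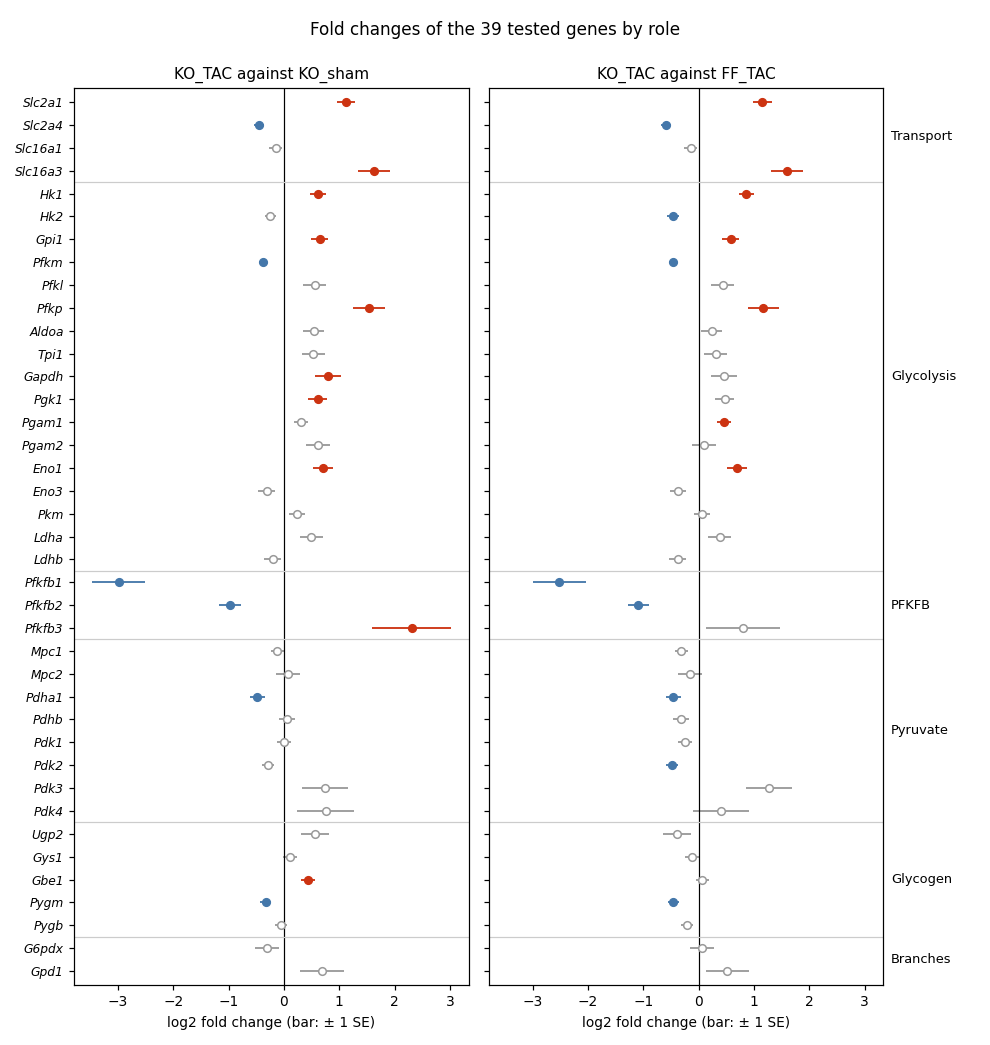
Log2 fold change (x axis, with bars of 1 SE) of the 39 tested genes, ordered by role, for KO_TAC against KO_sham (left) and against FF_TAC (right), both on the same scale. Red points were called higher, blue points lower and open grey points not called: Slc2a1, Slc16a3, Hk1, Gpi1, Pfkp and Eno1 are red on both sides, while Pfkfb1 lies farthest to the left at -2.98 and -2.52.

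The promoters of members that moved in the same direction can be read side by side. Upstream windows of 250 bases before a RefSeq start (GRCm38.p6) were matched for 38 of the 40 members, 59 windows in all. Slc2a4 and Gpd1 had no entry. Both strands were searched for ACGTG and GCGTG, cores of the sites that hypoxia-inducible factors bind, and for CACGTG, an E-box that also holds ACGTG on each strand. ACGTG was in 37.3% of the members' windows and 16.6% of all 32851 windows, GCGTG in 54.2% and 28.2%, and CACGTG in 10.2% and 6.02%. The members' windows were richer in G and C, with a median of 60.4% against 52.4%, and the motifs are rich in these letters, so the shares are given as a description. The windows of 5 higher members with a single start follow, chosen for being called in KO_TAC, then those of 2 lower ones. They are Slc2a1 at chr4:119108495-119108744 on the + strand, Slc16a3 at chr11:120948817-120949066 on the + strand, Pfkp at chr13:6648772-6649021 on the - strand, Pgk1 at chrX:106186850-106187099 on the + strand and Gpi1 at chr7:34230337-34230586 on the - strand, then Pygm at chr19:6384158-6384407 on the + strand and Pdha1 at chrX:160138431-160138680 on the - strand. Each is written 5′ to 3′ toward its start, and capitals mark ACGTG or GCGTG or their complements.
Slc2a1: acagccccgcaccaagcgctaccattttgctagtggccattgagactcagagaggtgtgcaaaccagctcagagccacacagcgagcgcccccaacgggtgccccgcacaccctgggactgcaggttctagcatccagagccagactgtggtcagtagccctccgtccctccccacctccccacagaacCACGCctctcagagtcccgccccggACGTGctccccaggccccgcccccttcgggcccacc
Slc16a3: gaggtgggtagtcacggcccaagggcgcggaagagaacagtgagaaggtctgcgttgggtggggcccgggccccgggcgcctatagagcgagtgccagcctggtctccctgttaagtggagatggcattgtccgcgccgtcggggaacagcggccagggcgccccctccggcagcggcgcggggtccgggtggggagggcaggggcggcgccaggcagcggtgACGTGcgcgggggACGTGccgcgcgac
Pfkp: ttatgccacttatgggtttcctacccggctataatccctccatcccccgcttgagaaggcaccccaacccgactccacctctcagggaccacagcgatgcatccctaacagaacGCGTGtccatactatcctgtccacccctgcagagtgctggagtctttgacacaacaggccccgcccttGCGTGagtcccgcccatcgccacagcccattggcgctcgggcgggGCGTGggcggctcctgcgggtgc
Pgk1: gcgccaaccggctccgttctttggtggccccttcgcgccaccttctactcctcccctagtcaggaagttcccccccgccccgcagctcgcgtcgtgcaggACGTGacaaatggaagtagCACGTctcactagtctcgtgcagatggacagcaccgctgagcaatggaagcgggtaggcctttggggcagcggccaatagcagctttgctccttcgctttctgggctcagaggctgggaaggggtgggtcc
Gpi1: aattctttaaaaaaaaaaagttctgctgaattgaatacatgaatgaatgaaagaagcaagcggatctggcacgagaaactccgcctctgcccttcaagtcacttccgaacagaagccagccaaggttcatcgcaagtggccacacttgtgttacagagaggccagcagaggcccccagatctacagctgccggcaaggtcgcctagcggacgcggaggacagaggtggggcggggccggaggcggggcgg
Pygm: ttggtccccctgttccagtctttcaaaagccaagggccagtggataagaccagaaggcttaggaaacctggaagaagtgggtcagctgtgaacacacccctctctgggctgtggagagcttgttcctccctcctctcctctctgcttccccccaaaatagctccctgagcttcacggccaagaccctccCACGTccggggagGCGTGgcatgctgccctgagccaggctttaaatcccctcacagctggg
Pdha1: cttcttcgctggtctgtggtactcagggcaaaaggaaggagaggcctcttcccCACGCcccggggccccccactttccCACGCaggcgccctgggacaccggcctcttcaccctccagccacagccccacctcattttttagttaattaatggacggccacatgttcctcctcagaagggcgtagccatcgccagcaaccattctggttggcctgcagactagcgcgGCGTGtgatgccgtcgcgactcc
Slc16a3 and Pgk1 each hold 2 matches of ACGTG, Slc2a1 holds 1 of each core, Pfkp holds 3 of GCGTG and Gpi1 holds none. Both falling members hold matches too, Pygm 1 of each and Pdha1 3 of GCGTG. A match is a string in the window, and no binding was measured.

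The carriers of glucose moved in opposite directions. Slc2a1 (ENSMUSG00000028645, chr4:119108711-119137983, + strand) measured 41.7, 47.9, 39.8 and 47.3 CPM in the 4 KO_TAC hearts, 19.1, 25.7, 18.1 and 18.2 in KO_sham, 21.96, 22.9, 20.9 and 13.5 in FF_TAC and 20.6, 21.9, 16.4 and 16.8 in FF_sham. Every KO_TAC heart lay above every other heart of the cohort. The log2 fold change was 1.12 ± 0.16, adjusted p = 0.00102, against KO_sham and 1.16 ± 0.17, adjusted p = 0.000865, against FF_TAC. Slc2a4 (ENSMUSG00000018566, chr11:69942539-69948188, - strand) measured 262, 279.7, 244 and 294 CPM in KO_TAC, 358, 391, 374 and 347 in KO_sham, 458, 378, 375 and 410.5 in FF_TAC and 452, 396, 401 and 444 in FF_sham. Here the KO_TAC hearts lay below all others. It fell in both comparisons (log2 fold change -0.45 ± 0.094, adjusted p = 0.00551, and -0.59 ± 0.095, adjusted p = 0.00167). Slc2a1 remained the less abundant carrier: the 2 genes have nearly equal exon lengths, 3506 and 3478 bases.

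The lactate carriers differed from each other. Slc16a3, which encodes MCT4, the exporter of glycolytic tissues (ENSMUSG00000025161, chr11:120948480-120960868, + strand), measured 8.95, 16.3, 10.2 and 8.45 CPM in KO_TAC against 2.67, 5.77, 3.12 and 2.61 in KO_sham, 3.01, 4.46, 4.35 and 2.59 in FF_TAC and 1.77, 2.78, 2.39 and 2.03 in FF_sham. All KO_TAC values were above all others, from a low level. The log2 fold change was 1.63 ± 0.29, adjusted p = 0.00250, against KO_sham and 1.60 ± 0.29, adjusted p = 0.00275, against FF_TAC. Slc16a1, which encodes MCT1, the carrier that heart muscle uses to take lactate up, was not called, with means from 188 ± 21.9 CPM (SD, n = 4) in FF_sham to 214 ± 20.1 in KO_sham, and 192 ± 22.99 in KO_TAC.

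At hexokinase, Hk1 was called higher in both comparisons and Hk2 lower against FF_TAC alone. Hk1, the hexokinase of most tissues (ENSMUSG00000037012, chr10:62268855-62379908, - strand), measured 270.4, 366, 423 and 341 CPM in KO_TAC, 222, 192, 240.3 and 260 in KO_sham, 207, 171, 212 and 179.7 in FF_TAC and 218, 182, 237 and 195 in FF_sham. KO_TAC lay above all 12 others, with log2 fold changes of 0.62 ± 0.14, adjusted p = 0.00810, against KO_sham and 0.86 ± 0.14, adjusted p = 0.00179, against FF_TAC. Hk2, the insulin-responsive hexokinase of muscle (ENSMUSG00000000628, chr6:82725025-82774454, - strand), measured 244, 342, 284 and 298 CPM in KO_TAC, 351, 375, 341 and 315 in KO_sham, 374, 436, 388 and 402 in FF_TAC and 364, 305, 319 and 327 in FF_sham. The 4 FF_TAC values lay above all of KO_TAC, while 1 KO_TAC heart reached into the KO_sham range. Against FF_TAC the difference passed (log2 fold change -0.46 ± 0.11, adjusted p = 0.0114), while against KO_sham the difference did not pass (-0.24 ± 0.11, adjusted p = 0.09997). Gpi1, the isomerase that follows hexokinase (ENSMUSG00000036427, chr7:34201330-34230336, - strand), measured 585, 1102, 996 and 724 CPM in KO_TAC against 507 to 623 in the other 12 hearts. Its replicate 1 lay inside that range and the other 3 above it, and the log2 fold change was 0.65 ± 0.15, adjusted p = 0.00971, against KO_sham and 0.58 ± 0.15, adjusted p = 0.0211, against FF_TAC. The second of these calls was lost without FF_TAC replicate 1 or 4 or KO_TAC replicate 2 or 3, with adjusted p up to 0.0782.

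Of the 3 phosphofructokinase subunits, Pfkp rose and Pfkm fell. Pfkp (ENSMUSG00000021196, chr13:6579768-6648777, - strand) measured 76.1, 222, 195 and 160.2 CPM in KO_TAC, 71.6, 35.4, 56.95 and 60.9 in KO_sham, 59.02, 77.4, 87.1 and 65.7 in FF_TAC and 53.2, 42.95, 65.7 and 43.6 in FF_sham. Replicates 2 to 4 of KO_TAC lay above all other hearts, and replicate 1 fell among the FF_TAC values. The log2 fold change was 1.54 ± 0.28, adjusted p = 0.00289, against KO_sham and 1.17 ± 0.28, adjusted p = 0.0125, against FF_TAC. Pfkm, which forms the muscle enzyme, measured 880.1, 797, 811 and 914 CPM in KO_TAC, below the 1084 to 1307 CPM of all other hearts of the cohort, and fell by a smaller step (log2 fold change -0.38 ± 0.078, adjusted p = 0.00479, and -0.46 ± 0.078, adjusted p = 0.00205). Pfkl was not called (0.56 ± 0.21, adjusted p = 0.0606, and 0.44 ± 0.21, adjusted p = 0.168), with 103, 271, 247 and 168 CPM in KO_TAC, and passed without replicate 1 (log2 fold change 0.76, adjusted p = 0.00102, against KO_sham). Without KO_sham replicate 2 the log2 fold change of Pfkl was 0.49 (adjusted p = 0.138). Exons of Pfkp overlap those of Pitrm1 on the other strand over 748 bases, and Pitrm1 averaged 44.5 CPM in KO_TAC, 47.1 in KO_sham and 51.2 in FF_TAC.

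**Figure D2:**
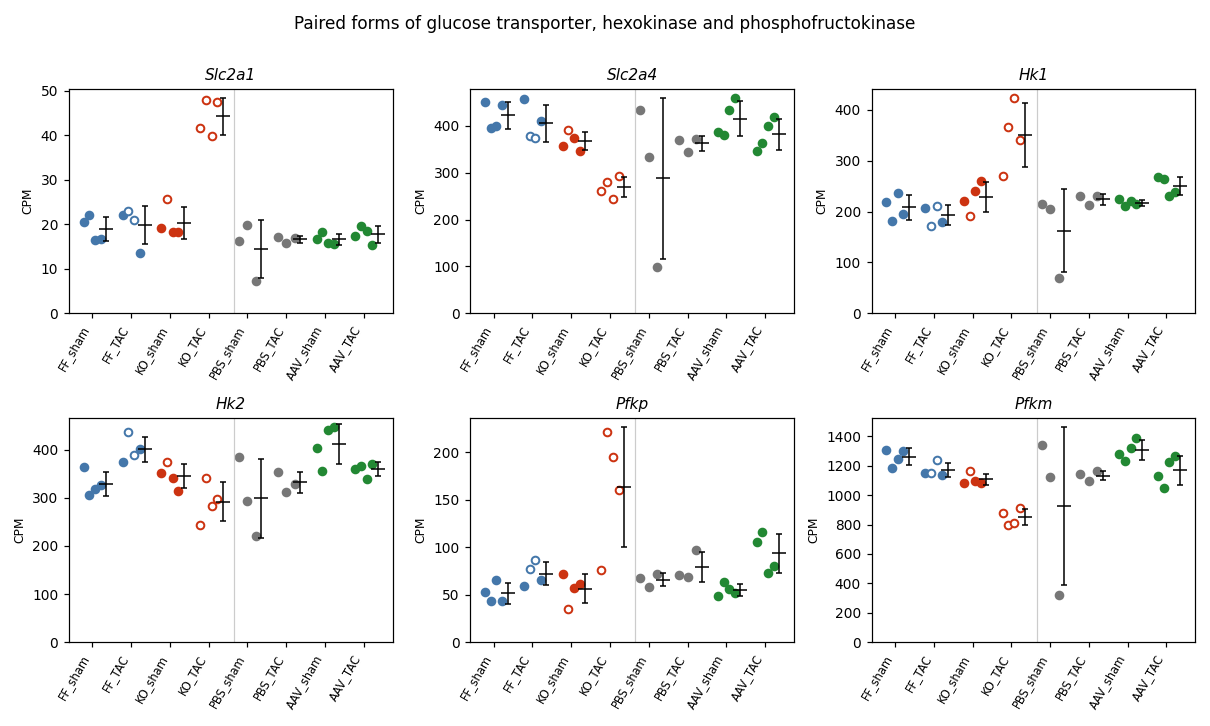
CPM (y axis, from 0) of 6 genes in every heart of the 8 groups, each point being 1 library and each bar the mean ± SD. Open points are libraries with under 100 CPM of haemoglobin transcripts. KO_TAC is above the rest of its cohort for Slc2a1 and Hk1 and below it for Slc2a4 and Pfkm, and PBS_sham replicate 3 is the low grey point in Slc2a4 (97.8 CPM) and Pfkm (319 CPM).

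Farther down glycolysis, Eno1, Pgk1 and Gapdh were higher in KO_TAC than in KO_sham, and each was above all KO_sham hearts in 3 of the 4 KO_TAC hearts. Eno1, the enolase of most tissues (ENSMUSG00000063524, chr4:150236721-150248879, + strand), measured 146, 316, 302 and 215 CPM in KO_TAC, 158, 124, 158 and 158 in KO_sham, 152, 155, 155 and 146 in FF_TAC and 162, 168, 150.2 and 149 in FF_sham. KO_TAC replicate 1 lay within the range of the other groups and the rest above it. The log2 fold change was 0.71 ± 0.18, adjusted p = 0.0131, against KO_sham and 0.69 ± 0.18, adjusted p = 0.0200, against FF_TAC. The first call was lost without KO_TAC replicate 3 (adjusted p = 0.0512), and the second without FF_TAC replicate 1 or 4 or KO_TAC replicate 2 or 3 (up to 0.0763). Pgk1, the first enzyme of the path to make ATP (ENSMUSG00000062070, chrX:106187100-106203699, + strand), measured 292, 600.3, 539.5 and 415 CPM in KO_TAC, 346, 258, 308 and 298 in KO_sham, 297, 367, 341 and 325 in FF_TAC and 313, 304, 308 and 302 in FF_sham. It passed against KO_sham (0.61 ± 0.17, adjusted p = 0.0194) but not against FF_TAC (0.47 ± 0.17, adjusted p = 0.0739), and the call was lost without KO_sham replicate 2 or KO_TAC replicate 2 or 3 (adjusted p up to 0.0694). Gapdh (ENSMUSG00000057666, chr6:125161715-125166467, - strand) measured 253, 643, 559 and 406 CPM in KO_TAC, 280.3, 239, 297 and 253 in KO_sham, 282, 419, 391 and 258 in FF_TAC and 347, 234, 294 and 287 in FF_sham. Like Pgk1 it was low in replicate 1, and it passed against KO_sham alone (0.80 ± 0.24, adjusted p = 0.0244, and 0.46 ± 0.24, adjusted p = 0.193, against FF_TAC). That call was lost without KO_sham replicate 2 or 4 or KO_TAC replicate 2 or 3 (adjusted p up to 0.0840), and it stood when the counts of its copies were added.

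Several abundant enzymes had the same shape without passing the test. Aldoa measured 2182, 5069, 4657 and 3404 CPM in KO_TAC against 2458 to 3725 in the other 12 hearts, and Tpi1, triose phosphate isomerase, 560.4, 1388, 1158 and 882 CPM against 550 to 915. Their log2 fold changes against KO_sham were 0.53 ± 0.19, adjusted p = 0.0532, and 0.53 ± 0.21, adjusted p = 0.0717. Without KO_TAC replicate 1 these became 0.72 (adjusted p = 0.00134) and 0.72 (0.00317). Without KO_sham replicate 2 they were 0.52 (adjusted p = 0.0982) and 0.42 (0.178). Pgam2 (0.61 ± 0.22, adjusted p = 0.0512) and Pkm, pyruvate kinase (0.23 ± 0.14, adjusted p = 0.230), were not called against KO_sham either, but without KO_TAC replicate 1 both passed, at 0.73 (adjusted p = 0.0152) and 0.37 (0.00768). Without KO_sham replicate 2 neither passed, at 0.49 (adjusted p = 0.134) and 0.18 (0.409). Pgam1, the widely expressed mutase, was called against FF_TAC, with 35.4, 33.2, 36.9 and 31.2 CPM against 26.3, 24.03, 23.6 and 25.4 (log2 fold change 0.46 ± 0.13, adjusted p = 0.0324). That call was lost in 6 of 8 fits that left out 1 heart: each of the 4 FF_TAC replicates or KO_TAC replicate 2 or 3 (adjusted p up to 0.0994). Eno3 differed in neither comparison past the threshold (-0.31 ± 0.15, adjusted p = 0.141, and -0.37 ± 0.15, adjusted p = 0.111).

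Ldha, the lactate dehydrogenase of skeletal muscle and of low oxygen, measured 479, 1179, 964 and 630 CPM in KO_TAC, 701, 563, 543 and 500.2 in KO_sham, 624, 641, 602 and 619.5 in FF_TAC and 607, 629, 533 and 574 in FF_sham. Ldhb measured 889.7, 1632, 1344 and 1338 CPM in KO_TAC, 1501, 1488, 1638 and 1351 in KO_sham, 1630, 1923, 1680 and 1538 in FF_TAC and 1972, 1403, 1647 and 1756 in FF_sham. Groups overlapped for both genes, and neither passed: Ldha differed by 0.50 ± 0.21, adjusted p = 0.0869, from KO_sham and Ldhb by -0.38 ± 0.15, adjusted p = 0.110, from FF_TAC. Without KO_TAC replicate 1, Ldha passed against KO_sham (0.67, adjusted p = 0.00585) and against FF_TAC (0.56, 0.0234). In that fit Pfkl, Aldoa, Tpi1, Gapdh and Pgk1 also passed against FF_TAC, at 0.42 to 0.65. The same fit called a larger share of all genes in both comparisons, as given above. Without KO_TAC replicate 2 instead, Ldha differed from KO_sham by 0.26. Its adjusted p there ran up to 0.334 over the fits that left out 1 heart.

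Taken within each heart, a ratio of 2 forms removes what raises or lowers both alike. The log2 ratio of Slc2a1 to Slc2a4 ran from -2.65 to -2.54 in KO_TAC, against -4.93 to -3.93 in the other floxed groups. Hk2 to Hk1 ran from -0.58 to -0.10 in KO_TAC and from 0.28 to 1.35 in the rest. Hk1 counts thus exceeded Hk2 counts in the 4 KO_TAC hearts and in none of the other 12. Exons of Hk1 span 8532 bases and those of Hk2 5969, so this order of counts is not an order of levels per kilobase. Pfkp to Pfkm ran from -3.53 to -1.85 against -5.04 to -3.83, and Eno1 to Eno3 from -2.54 to -1.60 against -3.37 to -2.94. Ldha to Ldhb nearly touched, at -1.09 to -0.47 against -1.70 to -1.10. KO_TAC, replicate 1 included, held an end of the range in these 5 ratios, which are listed first because they separated. Slc2a1, Slc2a4, Hk1 and Pfkm already did not overlap on their own, so their ratios add little to that. No share of separated ratios over other pairs of genes was computed. Pygb to Pygm, the brain and muscle glycogen phosphorylases, overlapped (-0.28 to 0.14 against -0.65 to -0.11), as did Pgam1 to Pgam2, Pdk4 to Pdk2 and Aldoc to Aldoa. In the vector cohort, PBS_sham replicate 3 had the highest ratio of Pfkp to Pfkm (-2.15) and of Eno1 to Eno3 (-2.08) of its 14 hearts. These pairs were chosen with results of these hearts known, so the ranges are descriptions and carry no test.

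**Figure D3:**
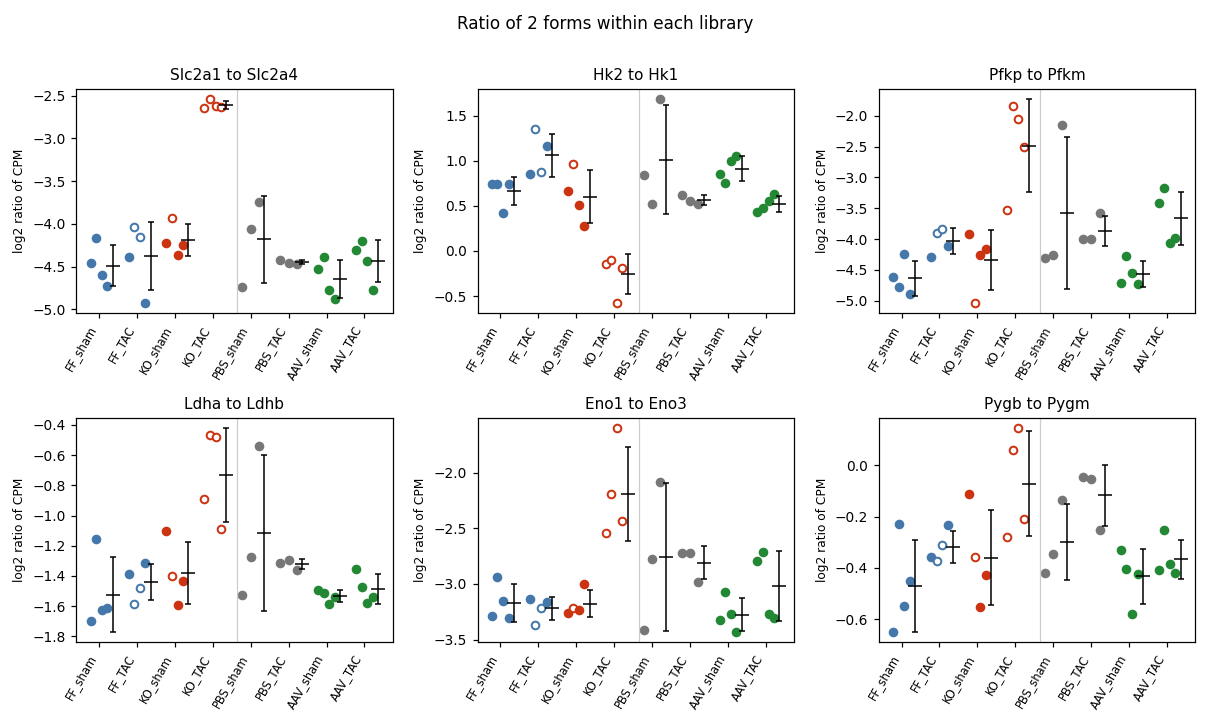
Log2 ratio of CPM (y axis) of 6 pairs of forms in every heart, each point being 1 library, open where haemoglobin transcripts were under 100 CPM, with bars for mean ± SD. For Slc2a1 to Slc2a4 the KO_TAC points lie at -2.65 to -2.54, above the other floxed groups, and for Hk2 to Hk1 they lie at -0.58 to -0.10, below them.

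The PFKFB enzymes, which set the level of fructose 2,6-bisphosphate, held both the lowest and the highest log2 fold change of the 39 against KO_sham. Pfkfb1, best known from liver and skeletal muscle (ENSMUSG00000025271, chrX:150588229-150643878, + strand), measured 1.72, 1.88, 1.28 and 1.43 CPM in KO_TAC, 10.1, 20.2, 11.4 and 8.25 in KO_sham, 19.98, 4.03, 5.45 and 6.57 in FF_TAC and 13.7, 20.4, 11.3 and 23.9 in FF_sham. KO_TAC lay below all others, and FF_TAC replicate 1 stood well above its group. The log2 fold change was -2.98 ± 0.48, adjusted p = 0.00160, against KO_sham and -2.52 ± 0.48, adjusted p = 0.00362, against FF_TAC, or -1.77 without FF_TAC replicate 1. Pfkfb2, the heart form that insulin and adrenaline signals activate (ENSMUSG00000026409, chr1:130689182-130729253, - strand), measured 30.1, 17.2, 19.5 and 28.4 CPM in KO_TAC, 41.5, 49.97, 44.6 and 51.2 in KO_sham, 42.9, 55.04, 50.97 and 53.5 in FF_TAC and 42.4, 30.3, 56.9 and 39.96 in FF_sham. KO_TAC lay below every other heart, with log2 fold changes of -0.97 ± 0.19, adjusted p = 0.00400, and -1.09 ± 0.19, adjusted p = 0.00263. Pfkfb3, the inducible form with high kinase activity (ENSMUSG00000026773, chr2:11471433-11554077, - strand), measured 54.5, 34.05, 101 and 171 CPM in KO_TAC, 11.4, 38.4, 11.3 and 12.1 in KO_sham, 17.03, 80.3, 96.3 and 13.2 in FF_TAC and 7.69, 29.4, 11.3 and 9.05 in FF_sham. The 7 libraries low in haemoglobin held the 7 highest of the 16 values, whatever their group. It was called against KO_sham (2.31 ± 0.71, adjusted p = 0.0284) but not against FF_TAC (0.80 ± 0.68, adjusted p = 0.438), and with a haemoglobin term the first became 0.86 with adjusted p = 0.444. The call was also lost without KO_sham replicate 1, 3 or 4 or KO_TAC replicate 3 or 4 (adjusted p up to 0.0771).

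At the entry of pyruvate to the mitochondria, Pdk4 varied widely within each group while Pdha1 fell in both comparisons and Pdk2 in that with FF_TAC. Pdk4, the kinase that fasting and fatty acids induce (ENSMUSG00000019577, chr6:5483351-5496309, - strand), measured 534, 319, 466 and 698 CPM in KO_TAC, 263, 575, 144 and 215 in KO_sham, 297, 476, 548 and 197 in FF_TAC and 123, 446, 471 and 904 in FF_sham. The groups overlapped throughout and no comparison called it (0.75 ± 0.51, adjusted p = 0.280, and 0.41 ± 0.51, adjusted p = 0.613). Without KO_sham replicate 2 the first difference was 1.27 (adjusted p = 0.0903). Pdk2, the kinase present in most tissues, differed between the TAC groups, at 310.3, 279.6, 289.9 and 358 CPM in KO_TAC and 444, 421, 438 and 427 in FF_TAC, with no overlap (log2 fold change -0.48 ± 0.11, adjusted p = 0.00844). Against KO_sham it did not pass (-0.29 ± 0.11, adjusted p = 0.0582), and KO_sham at 331, 429.5, 377 and 372 lay at or below the FF_sham values of 536, 429.6, 509 and 534. Pdha1, the subunit that the kinases phosphorylate, measured 614, 408, 468 and 652 CPM in KO_TAC against 717, 816, 730.4 and 723 in KO_sham and 784, 685, 699.6 and 763 in FF_TAC, below all hearts of both groups. It fell in both comparisons (-0.48 ± 0.13, adjusted p = 0.0179, and -0.45 ± 0.13, adjusted p = 0.0329), but the first call was lost without KO_TAC replicate 3 (adjusted p = 0.0635) and the second without FF_TAC replicate 1 or 4 or KO_TAC replicate 2 or 3 (up to 0.105). Pdk1, Pdk3, Pdhb, Mpc1 and Mpc2 were called in neither, with log2 fold changes from -0.32 to 1.27. Pdk3 gave the largest of these, at 9.84, 4.27, 3.89 and 2.44 CPM against 2.08, 2.17, 2.08 and 2.15 in FF_TAC (adjusted p = 0.0543), and without KO_TAC replicate 1 it was 0.72 (adjusted p = 0.159). Pdhb, the partner subunit of Pdha1, averaged 577 ± 107 CPM (SD, n = 4) in KO_TAC and 554 ± 40.6 in KO_sham. The carrier subunits Mpc1 (115 ± 15.5 and 124 ± 11.4) and Mpc2 (259 ± 99.9 and 246 ± 40.7) and the kinase Pdk1 (156 ± 25.2 and 155 ± 20.6) lay close together in the 2 groups.

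**Figure D4:**
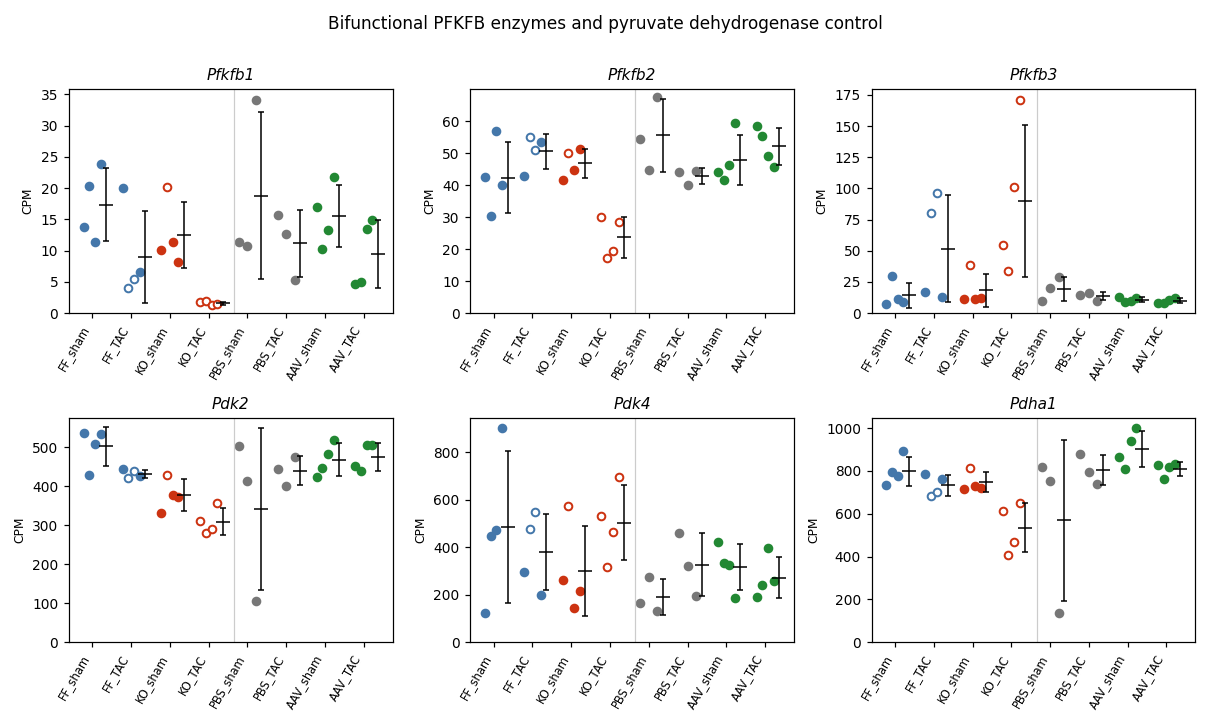
CPM (y axis, from 0) of 3 PFKFB genes, 2 PDK genes and Pdha1 in every heart, with points, open symbols and bars as in the plot of paired forms. Pfkfb1 in KO_TAC lies at 1.28 to 1.88 CPM, the open points are the highest ones for Pfkfb3 in the floxed cohort, and Pdk4 spreads from 123 to 904 CPM within FF_sham alone.

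Of the glycogen enzymes, Pygm, the muscle phosphorylase that releases glucose phosphate from glycogen, measured 877, 764, 827 and 1071 CPM in KO_TAC, 1047, 1205, 1130 and 1065 in KO_sham and 1183, 1241, 1271 and 1160 in FF_TAC. It lay below all FF_TAC hearts and overlapped KO_sham in 1 heart, and it fell in both comparisons (-0.33 ± 0.10, adjusted p = 0.0303, and -0.46 ± 0.10, adjusted p = 0.00960). The first call was lost without KO_sham replicate 2 or 3 or KO_TAC replicate 2 or 3 (adjusted p up to 0.0860). Gbe1, the branching enzyme, was higher than in KO_sham, at 45.01, 61.6, 73.3 and 61.02 CPM against 43.6, 46.1, 45.4 and 42.8 (0.44 ± 0.12, adjusted p = 0.0185), a call lost without KO_sham replicate 4 or KO_TAC replicate 3 (adjusted p up to 0.0760), and differed by 0.07 ± 0.12 from FF_TAC (adjusted p = 0.720). Ugp2, which makes the sugar donor of glycogen synthesis, averaged 372 ± 103 CPM (SD, n = 4) in KO_TAC, 251 ± 18.6 in KO_sham and 485 ± 152 in FF_TAC, and was called in neither comparison, though it passed against KO_sham without KO_TAC replicate 1 (0.73, adjusted p = 0.02304). Without KO_sham replicate 2 Ugp2 differed by 0.60 (adjusted p = 0.139). Gys1, the glycogen synthase of muscle (119.7 ± 26.3, 111 ± 2.06 and 129 ± 6.72), and Pygb (839 ± 98.1, 868 ± 101 and 973 ± 42.1) were not called either. Among the side branches the same held for G6pdx, the entry to the pentose phosphate path (7.25 ± 1.75 CPM in KO_TAC and 8.97 ± 0.656 in KO_sham, mean ± SD, n = 4) and for Gpd1, which takes carbon off to glycerol phosphate (80.4 ± 34.1 and 49.9 ± 14.3).

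The haemoglobin split falls unevenly over the groups, so the calls were set beside fits that take it into account. All 4 KO_TAC hearts were low in haemoglobin, as was 1 KO_sham heart and 2 FF_TAC hearts, so TAC and the split cannot be fully told apart in the knockouts. With a term for it, 4 members stayed called against KO_sham (Slc2a1 higher, and Pfkfb1, Pfkfb2 and Pfkm lower), beside 1.75% of all genes, and 13 were called against FF_TAC, beside 7.23% of all genes. In that second fit Slc2a1 was at 0.97 (adjusted p = 0.00488), Hk1 at 0.94 (0.00534), Pfkm at -0.50 (0.00768), Slc2a4 at -0.55 (0.00983) and Hk2 at -0.51 (0.0195). Between the haemoglobin-low hearts alone, 4 of KO_TAC and 2 of FF_TAC, no member and no gene of the table was called. There 13 members had an unadjusted p under 0.05 (beside 9.62% of all genes), and Slc2a1 (0.98), Hk1 (0.85), Hk2 (-0.52), Pfkfb2 (-1.18) and Slc16a3 (1.29) kept their direction. Against the 1 haemoglobin-low KO_sham heart, these members differed by 0.77, 0.86, -0.37, -1.08 and 0.91 in the same order. With all KO_sham hearts the values were 1.12, 0.62, -0.24, -0.97 and 1.63. Fibroblast markers summed to 1990 to 2492 CPM in KO_TAC against 1058 to 1653 in KO_sham and 1062 to 1135 in FF_TAC, with 3 of 7 called higher in each comparison. Endothelial markers summed to 492 to 697 CPM against 712 to 904 and 731 to 1001, with 4 and 3 of 6 called lower. Macrophage markers summed to 430 to 490.3 CPM against 324 to 666 and 266 to 308, and were called higher against FF_TAC in 4 of 7 and against KO_sham in 0 of 7. Cardiomyocyte markers summed to 51510, 73020, 54470 and 52930 CPM in KO_TAC against 59040 to 61200 in KO_sham and 60740 to 68740 in FF_TAC. Of these 8 markers, 2 were called lower in each comparison (beside 11.5% and 6.8% of all genes) and 1 higher against KO_sham. The part of all these cells in the rise of Slc2a1, Hk1, Pfkp or Slc16a3 was not tested. Nor was their part in the fall of Slc2a4, Pfkm, Pygm or Pdha1.

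Outside the knockout hearts under TAC, no member passed in the floxed cohort. Between FF_TAC and FF_sham 0 of 39 were called (0% of all genes), 6 had an unadjusted p under 0.05 (beside 11.1% of all genes), and DESeq2 called 0. The 6 were Hk2, Pfkfb3, Slc16a3 and Ugp2 upward and Pfkfb1 and Pgam1 downward. Hk2 was higher in all 4 FF_TAC hearts than in any FF_sham heart (log2 fold change 0.28 ± 0.11, adjusted p = 0.381), and Ugp2 measured 297, 659, 531 and 451 against 273, 190.2, 386 and 310.4 CPM (0.74 ± 0.25, adjusted p = 0.352). Between KO_sham and FF_sham 0 were called (0% of all genes), 5 had an unadjusted p under 0.05 (beside 5.22% of all genes), and DESeq2 called 1, Pdk2 (beside 0.505% of the genes it tested). Pdk2, Pfkm, Slc2a4 and Pygm leaned lower in KO_sham without being called by edgeR. Their log2 differences were -0.41 ± 0.11, -0.19 ± 0.078, -0.20 ± 0.094 and -0.27 ± 0.10, with adjusted p from 0.798 to 0.950. The difference between the 2 TAC responses was tested as an interaction: edgeR called 0 members (beside 0.0449% of all genes), 13 had an unadjusted p under 0.05 (beside 13.1% of all genes), and DESeq2 called 5 (beside 2.35% of its genes), which were Hk1, Hk2, Pfkfb1, Pfkfb2 and Slc2a1. The interaction was 1.05 ± 0.23, adjusted p = 0.0912, for Slc2a1, -1.23 ± 0.27, adjusted p = 0.0912, for Pfkfb2 and -0.53 ± 0.15, adjusted p = 0.156, for Hk2. Without KO_TAC replicate 1, 5 members passed it in edgeR (Hk1, Gpi1, Pfkfb2, Eno1 and Slc2a1), beside 1.36% of all genes.

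In the vector cohort no comparison called a member. Slc2a1 stayed between 13.5 and 25.7 CPM in all floxed hearts outside KO_TAC and measured 16.2, 19.9 and 7.29 CPM in PBS_sham, 17.2, 15.7 and 16.8 in PBS_TAC, 16.7, 18.2, 15.8 and 15.6 in AAV_sham and 17.4, 19.7, 18.4 and 15.2 in AAV_TAC. Apart from PBS_sham replicate 3 these groups overlapped. Hk2 measured 384, 293 and 219.8 CPM in PBS_sham, 354, 312 and 329 in PBS_TAC, 404, 356, 440.2 and 446 in AAV_sham and 360.2, 367, 339 and 371 in AAV_TAC. Pdk4 measured 164, 275 and 132 CPM in PBS_sham, 461, 321 and 195 in PBS_TAC, 421, 333, 326 and 188 in AAV_sham and 190.4, 242, 396 and 259.7 in AAV_TAC. Both genes overlapped between TAC and sham in PBS hearts and in vector hearts. Slc2a4 measured 433, 333 and 97.8 CPM in PBS_sham, 370.2, 345 and 373 in PBS_TAC, 387, 381, 434 and 460.1 in AAV_sham and 346, 364, 399 and 419 in AAV_TAC. For Ldha these values were 678, 554 and 241 CPM, then 549, 503 and 656, then 564, 561, 624 and 614, then 554, 549.8, 533 and 604. For Ldhb they were 1957, 1342 and 349 CPM, then 1363, 1236 and 1683, then 1588, 1602, 1872 and 1784, then 1419, 1526, 1595 and 1756. Replicate 3 of PBS_sham was the lowest of the 14 hearts for all 6 of these genes. Between AAV_TAC and AAV_sham 0 of 39 were called (beside 0.00635% of 15745 genes) and 1 had an unadjusted p under 0.05 (beside 7.05%). This was Pfkp, with 106, 116, 73.3 and 79.8 CPM against 48.5, 63.9, 56.3 and 52.2, which did not overlap (log2 fold change 0.76 ± 0.17, adjusted p = 0.174). DESeq2 called it, with adjusted p = 0.00625 (beside 0.596% of its genes), as did edgeR fitted on these 8 libraries alone (0.0418, beside 0.971% of all genes). Between PBS_TAC and PBS_sham 0 were called (beside 0.0318% of all genes) and 3 had an unadjusted p under 0.05 (beside 18.5%), among them Ugp2 (1.19 ± 0.42, adjusted p = 0.193, or 0.76 and 0.154 without PBS_sham replicate 3). Between AAV_sham and PBS_sham 0 were called (beside 0.0127%) and 3 had an unadjusted p under 0.05 (beside 20.7%). Between AAV_TAC and PBS_TAC 0 were called (beside 0.0381%) and 0 had an unadjusted p under 0.05 (beside 3.19%). The interaction of vector and TAC called 0 (beside 0.00635%), with 1 at an unadjusted p under 0.05 (beside 6.95%). DESeq2 called 0 in these 4. PBS_sham replicate 3 set several of these values: the members' median log2 fold change was 0.32 for PBS_TAC against PBS_sham and 0.42 for AAV_sham against PBS_sham, and 0.01 and 0.05 without that heart. In it Pfkm was at 319 CPM against 1050 to 1389 in the other 13 hearts, and Pdha1 at 136 against 740 to 1003. Without PBS_sham replicate 1 instead, 2 members passed in the first of these comparisons (Pfkfb3 and Ugp2, beside 11.1% of all genes) and 4 in the second (Hk2, Pfkfb3, Mpc1 and G6pdx, beside 17.4% of all genes). That fit keeps replicate 3 as 1 of 2 PBS_sham hearts.

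Among 81 tested genes of the wider pathway, from a list of 91 names, more fell than rose in KO_TAC: 8 were higher (9.88%) and 18 lower (22.2%) against KO_sham, and 5 were higher and 15 lower against FF_TAC, beside the same shares of all genes as above. None was called in the other 3 comparisons of the cohort. Close to pyruvate dehydrogenase, Pdp2, a phosphatase that reverses the kinases, measured 8.76, 16.3, 10.9 and 13.5 CPM in KO_TAC, 34.02, 36.5, 26.7 and 25.6 in KO_sham and 43.1, 26.3, 22.5 and 26.99 in FF_TAC (log2 fold change -1.32 ± 0.23, adjusted p = 0.00229, and -1.27 ± 0.23, adjusted p = 0.00267). Pdpr, a regulatory subunit of these phosphatases, measured 7.23, 4.12, 4.78 and 9.52 CPM in KO_TAC, 16.9, 22.8, 20.7 and 17.5 in KO_sham and 22.2, 12.2, 17.8 and 24.6 in FF_TAC (-1.60 ± 0.24, adjusted p = 0.00120, and -1.58 ± 0.24, adjusted p = 0.00138). KO_TAC lay below all hearts of both groups for both genes. Of genes picked after their values were seen, the core subunits Dlat and Dld fell against FF_TAC (-0.41 ± 0.096, adjusted p = 0.0117, and -0.37 ± 0.098, adjusted p = 0.0212) and the phosphatase Pdp1 against KO_sham (-0.41 ± 0.13, adjusted p = 0.0358). Each of these is given for a single comparison only, and the subunit Pdhb was called in neither. Fbp2, the muscle fructose bisphosphatase that opposes phosphofructokinase, measured 3.74, 7.27, 5.28 and 7.08 CPM in KO_TAC against 15.4 to 37.3 in the other 12 hearts (-1.94 ± 0.28, adjusted p = 0.00102, and -1.94 ± 0.28, adjusted p = 0.00101). Around glycogen, Stbd1, which binds it, rose to 22.6, 24.1, 19.8 and 16.9 CPM from 9.44, 11.9, 9.04 and 10.96 in KO_sham and 8.49, 7.23, 6.37 and 6.57 in FF_TAC (1.01 ± 0.20, adjusted p = 0.00361, and 1.54 ± 0.20, adjusted p = 0.000536). Eno2, the neuronal enolase, rose from a low level (1.98 ± 0.37, adjusted p = 0.00308, and 1.69 ± 0.37, adjusted p = 0.00790), as did Slc2a6, a further member of the glucose carrier family (2.85 ± 0.60, adjusted p = 0.00528, and 2.37 ± 0.58, adjusted p = 0.0146). In both genes the haemoglobin-low FF_TAC and KO_sham hearts were above the rest of their groups, with Slc2a6 at 1.99, 1.78 and 1.88 CPM against 0.284 to 0.616 CPM in the other 9 hearts outside KO_TAC. Gfpt2, a first enzyme of the hexosamine branch, measured 118, 46.8, 154 and 98.5 CPM in KO_TAC against 12.7, 48.03, 15.4 and 17.01 in KO_sham (2.17 ± 0.62, adjusted p = 0.0214), and the haemoglobin-low FF_TAC hearts reached 35.8 and 90.4 CPM. Arrdc4, a relative of the glucose uptake inhibitor Txnip, was higher in both comparisons (1.42 ± 0.30, adjusted p = 0.00566, and 1.14 ± 0.30, adjusted p = 0.0204). Sord, which turns sorbitol to fructose, was lower in both (-0.97 ± 0.16, adjusted p = 0.00160, and -0.94 ± 0.16, adjusted p = 0.00183). Gapdhs was lower than in KO_sham at a low level (-1.78 ± 0.42, adjusted p = 0.00929).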

How the data were processed

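Poly(A) RNA of 30 mouse hearts was sequenced with a directional kit, per the labels' protocols. Whole-number counts per gene, deposited by the authors, were used as given. HISAT2 2.1.0, featureCounts, Subread 1.5.1 and GRCm38 are named in the submitters' processing notes. The strand setting, the annotation release and the treatment of reads with several matches are not given in the sources used here, so genes with copies or with a partner on the opposite strand may share reads.

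Symbols and coordinates came from a GENCODE annotation of GRCm38, matched by gene identifier: 55227 of 55487 identifiers had a symbol, and the rest held 0.00336% of counts. Each cohort was fitted alone with edgeR 4.0.16 in R 4.3.3 (TMM factors, filterByExpr, quasi-likelihood test, group means), 16 libraries in the floxed cohort and 14 in the other, with Benjamini-Hochberg adjustment over all genes tested and calls at an adjusted p under 0.05, for 10 comparisons. Printed CPM values are scaled by the TMM factors. Values with ± are SE for log2 fold changes and SD for means. The test was checked on simulated counts. DESeq2 1.42.0, other scalings, filters and sample sets, a term for haemoglobin-low libraries, an atrial covariate and single libraries left out were alternatives. No 2 libraries of a group agreed within counting noise.

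The genes, the wider list and the markers were chosen with earlier results of these data known. Values of every library are given for Hk2, Pdk4, Slc2a1, Slc2a4, Ldha, Ldhb and genes called with an absolute log2 fold change of at least 0.58. Of the wider list, the 4 largest calls in each direction are named, except for a result that is not reported here. Ratios within a heart were taken on counts, with a pseudocount of 0.5 counts.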

Additional observations from a re-analysis of the deposited data

Results flagged for a closer look

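In 96 sets, each of 1 gene in 1 group of 4 hearts, 6 held a heart far from the other 3. The gap to the nearest of them exceeded the critical value of Dixon's test at 4 samples. Chance gives about 1 such set in 20, and the genes of 1 heart are not independent of each other. A number near these 6 sets would thus arise by chance alone. KO_sham replicate 2, the knockout sham heart low in haemoglobin, was the one in 4 of them: Slc2a1 was at 25.7 CPM against 18.1 to 19.1 CPM in the others, Slc16a3 at 5.77 against 2.61 to 3.12, Pfkfb3 at 38.4 against 11.3 to 12.1, and Eno1, in the other direction, at 124 against 157.7 to 158.2. Pfkfb3 was also at 29.4 CPM in FF_sham replicate 2 against 7.69 to 11.3 CPM in its group. Pfkfb1 was at 19.98 CPM in FF_TAC replicate 1, one of the FF_TAC hearts not low in haemoglobin, against 4.03 to 6.57 CPM in the other 3.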

How the results depend on the processing

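Among the alternative counts of called members, 167 stayed within 1.5 times the count reported and 15 did not. These counts pool all 10 comparisons, and the reported count was 0 in all but KO_TAC against KO_sham and KO_TAC against FF_TAC. Counts that stayed at 0 are among the 167, so the total does not measure how stable the calls are. No difference with an unadjusted p under 0.05 among the named genes changed direction. Others did, for example: without PBS_sham replicate 3, PBS_TAC against PBS_sham went from 0.20 to -0.12 for Slc2a1, from 0.33 to -0.08 for Slc2a4, from 0.21 to -0.11 for Ldha, from 0.23 to -0.21 for Ldhb and from 0.15 to -0.03 for Hk2, and without KO_sham replicate 2, KO_sham against FF_sham went from 0.34 to -0.32 for Pfkfb3. For KO_TAC against KO_sham (16 called), 9 were called with the 2 groups fitted alone (15.5% of all genes), 4 with a haemoglobin term (1.75%), 1 between haemoglobin-low hearts, where KO_sham has 1 heart assumed to vary like the other groups (0.0059%), and 9 to 23 with single hearts left out (12.3% to 40.8%). For KO_TAC against FF_TAC (15), these counts were 6 with the 2 groups alone (3.79%), 0 between haemoglobin-low hearts (0%), and 11 to 21 with single hearts left out (7.08% to 24.3%). For the interaction of knockout and TAC (0), DESeq2 called 5, the fit of all 30 libraries called 1 (0.314%), and leaving out hearts gave 0 to 5. DESeq2 called 1 in KO_sham against FF_sham and 1 in AAV_TAC against AAV_sham, where the fit of the 2 groups alone also called 1. Leaving out hearts gave 0 to 2 for PBS_TAC against PBS_sham and 0 to 4 for AAV_sham against PBS_sham. The cause of these shifts was not tested. Fits of 2 groups or of one side of the haemoglobin limit also hold fewer libraries, and the part of that number was not tested either. With the replicate number as a block, the replicate block fit called 16 and 15 members in the KO_TAC comparisons and 0 in their interaction. Same-numbered samples share only a number: 17 of 43 pairs had a correlation over 0.1, from -0.49 to 0.43. In Slc16a3, at 1.77 to 16.3 CPM in the floxed cohort, counts limit precision more than in the abundant enzymes.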
